A study of Mus musculus with 6 samples.

Results

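The receptors that hold blood stem cells in the marrow, let them leave it and bring them back were followed on Affymetrix arrays of sorted mouse haematopoietic stem cells. The genes are S1pr1, Cxcr4, Itga4, Itga5, Itga6, Itgb1, Itgal, Cd44 and Selplg. They were chosen for what their proteins do, with earlier results of these data already known. Every probe set that the platform annotation assigns to 1 of these 9 symbols alone was taken. These were 26 of the 45101 probe sets on the array. Of these 26, 18 lay above the array's median on at least 3 arrays and were tested, with at least 1 for each of the 9 genes. The test was a limma fit over all probe sets, with Benjamini-Hochberg adjusted p-values and a threshold of 0.05. Of the 9 genes, S1pr1 alone passed, and it was lower on the arrays labelled as knockout.

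The study compared 3 arrays of stem cells from mice labelled Lrg-47-/- with 3 arrays from wild-type mice. Lrg-47 is the older name of Irgm1, a GTPase that interferons induce and that defends cells against intracellular microbes. All mice were C57BL/6, 8 to 12 weeks old and kept free of specific pathogens, and all cells came from whole marrow, sorted by efflux of a Hoechst dye (the side population) together with Sca-1, c-kit and lineage antigens. Neither the part of Irgm1 that was deleted nor how many animals gave cells to each array is stated in the labels, and nothing says that the arrays of a group came from separate animals, so p-values measure only the spread between these arrays, which may be technical. Irgm1 itself (1418825_at) gave 7.68, 8.58 and 7.84 under the knockout label, against 8.39, 8.57 and 8.36 for wild type. Its values overlapped between the groups (adjusted p = 0.475), and as the position of the probe set relative to the deletion is not known, this reading does not check the labels.

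Stem cells stay in the marrow because CXCR4 on their surface is drawn by CXCL12 from niche cells and because integrins bind the niche. The integrin chains alpha 4, alpha 5 and alpha 6 each pair with beta 1 (Itgb1) to bind VCAM-1, fibronectin and laminin, and alpha L (Itgal) pairs with beta 2 to bind ICAMs. CD44 binds hyaluronan, and both CD44 and PSGL-1 (Selplg) carry sugars that selectins on marrow endothelium recognise when cells home. S1PR1 senses sphingosine-1-phosphate (S1P), which is abundant in blood and scarce in tissue, and guides cells out into the circulation.

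Values are deposited expression values on the log2 scale, in which 1 unit is 2-fold. The 6 arrays had like distributions, with medians of 3.69 to 3.73 under the knockout label and 3.67 to 3.71 in wild type. Bacterial control probe sets, which have no target in mouse RNA, reached at most 3.06 to 3.18 on the knockout-labelled arrays and 3.00 to 3.13 on the wild-type arrays. All 11 stem cell markers on the array, among them Kit, Procr, Mecom and Hlf, lay above this control ceiling on every array. In the limma fit 0 of the 11 passed the threshold, and 6 had an unadjusted p under 0.05, against 18.5% of all genes tested. Of the 11 differences 9 were below 0, with a median of -0.32, from Gata2 at -0.83 (adjusted p = 0.0664) to Slamf1 at 1.43 (adjusted p = 0.145). The log2 of their summed level was 14.92, 15.11 and 14.99 with the knockout label, against 15.28, 15.43 and 15.45 in wild type, with no overlap. Of 14 markers of T and NK cells on the array, 8 were tested. Of these 8, 3 rose with the knockout label (Ccl5, Gzmb and Klrd1), against 1.08% of all genes tested. The log2 of the summed level of the 14 genes was 13.05, 12.99 and 13.94 with the knockout label, against 9.44, 8.68 and 9.62 in wild type. With the knockout label this sum leans on Ccl5 (12.81, 12.77 and 13.52), so it does not describe the 14 as a class. Of the 14, the arrays with the knockout label had 10, 10 and 11 above the control ceiling, against 8, 7 and 8 in wild type. Ncr1 and Prf1 and both probe sets of Cd4 lay at or below the control ceiling on all arrays, and the CD3 genes were highest on knockout-labelled replicate 3. Of 7 B cell markers on the array, 3 were tested and 0 passed. The log2 of the summed level of all 7 was 9.13, 8.95 and 7.46 with the knockout label. In wild type it was 12.78, 8.72 and 9.35.

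Of the 18 receptor probe sets tested, 1 fell and 0 rose at an adjusted p under 0.05, against 1.39% of all 22580 probe sets tested (0.722% lower and 0.664% higher). At an unadjusted p under 0.05 there were 2, against 16.4% of all. The 3 arrays of one group lay wholly apart from those of the other for 5 of the 18 probe sets, 2 with the knockout-labelled arrays higher and 3 with them lower, against 22.6% of all. As many differences lay above 0 (9) as below it (9), with a median of 0.02, beside 0.01 over all probe sets tested. The median size of the difference was 0.18, beside 0.21 over all. Apart from the single call, the receptor probe sets lay near the whole array in these measures.

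**Figure D1:**
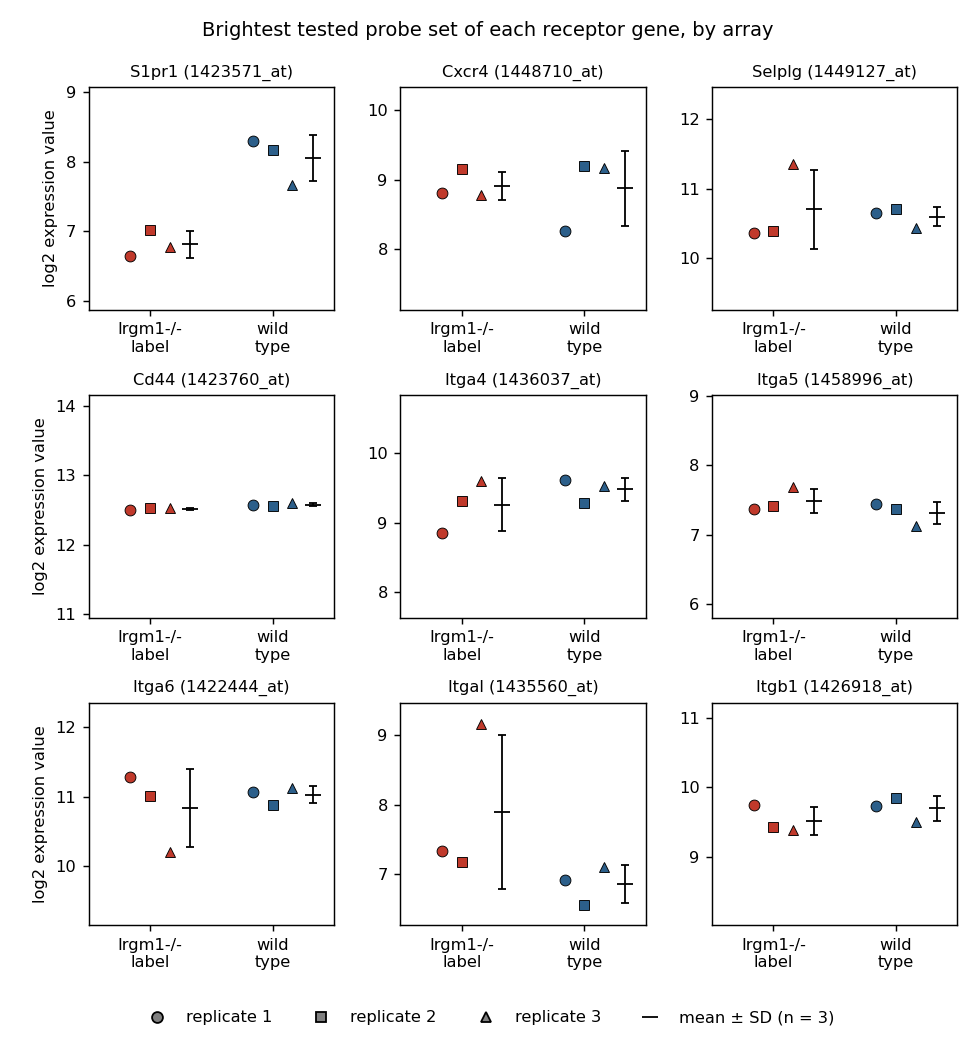
Log2 expression value (y axis, each panel spanning the same number of log2 units) of the brightest tested probe set of each of the 9 receptor genes, with the knockout-labelled arrays (red) left of the wild-type arrays (blue). Points are arrays by replicate number, and bars give the mean ± SD of 3 arrays. S1pr1 lies at 6.64 to 7.02 under the knockout label and 7.67 to 8.30 in wild type, while Itgal and Selplg are high on knockout-labelled replicate 3 alone.

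S1pr1, the receptor for exit from the marrow, was the one receptor gene that passed the threshold. Its only probe set (1423571_at) gave 6.64, 7.02 and 6.77 under the knockout label, against 8.30, 8.17 and 7.67 for wild type. The groups did not overlap, and the lowest wild-type array stood above the highest knockout-labelled one. The means were 6.81 ± 0.19 under the knockout label and 8.04 ± 0.33 in wild type (SD, n = 3 each). The level was thus 2.36-fold lower with the knockout label, a log2 difference of -1.24 (SE 0.22, 95% interval -1.75 to -0.72, adjusted p = 0.0498). By unadjusted p it ranked 306th among the 22580 probe sets tested, close to the threshold. In sorted cells measured in bulk, fewer cells that carry a transcript and less of it per cell cannot be told apart.

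The size of the S1pr1 difference held when arrays were left out, but its adjusted p did not stay under the threshold. The log2 difference was -1.15, -1.34 and -1.22 without knockout-labelled replicates 1, 2 and 3 (adjusted p = 0.166, 0.117 and 0.0826). It was -1.11 and -1.18 without wild-type replicates 1 and 2 (adjusted p = 0.172 and 0.175). Without wild-type replicate 3 it was -1.42 and stayed past the threshold (adjusted p = 0.0449). The call was also lost when every probe set was tested (adjusted p = 0.102), when the filter stood at the 25th percentile (0.0873) and after median centring (0.056).

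Signs of RNA quality moved with the groups in part. The 18S ribosomal RNA control, at its 5' end, gave 12.05, 12.47 and 11.20 with the knockout label, against 11.15, 10.05 and 9.31 in wild type, with no overlap. Its middle gave 7.89, 8.14 and 8.08, against 7.92, 7.97 and 7.36, which overlapped. Its 3' end gave 9.51, 9.42 and 9.84, against 9.40, 9.34 and 8.57, only just apart. Wild-type replicate 1, with the highest S1pr1 value, was also the highest in the summed B cell markers (12.78), a sum that leans on Ighm (12.735). Wild-type replicate 2, with S1pr1 at 8.17, had a sum of 8.72. Knockout-labelled replicates 1 and 2, with S1pr1 at 6.64 and 7.02, had sums of 9.13 and 8.95. The part of the 18S control, of the lower summed level of stem cell markers and of the B cell markers in the S1pr1 difference was not tested. The actin control, read at its 3' end less its 5' end, was 2.86, 2.81 and 3.56 under the knockout label and 3.16, 3.16 and 2.57 in wild type. The same gap for Gapdh was 2.57, 2.56 and 2.94 under the knockout label and 2.77, 2.72 and 3.08 in wild type, so wild-type replicate 3 was lowest by actin and highest by Gapdh, and both gaps overlapped between the groups. With this actin gap as a covariate the S1pr1 difference was -1.27 (adjusted p = 0.0381).

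**Figure D2:**
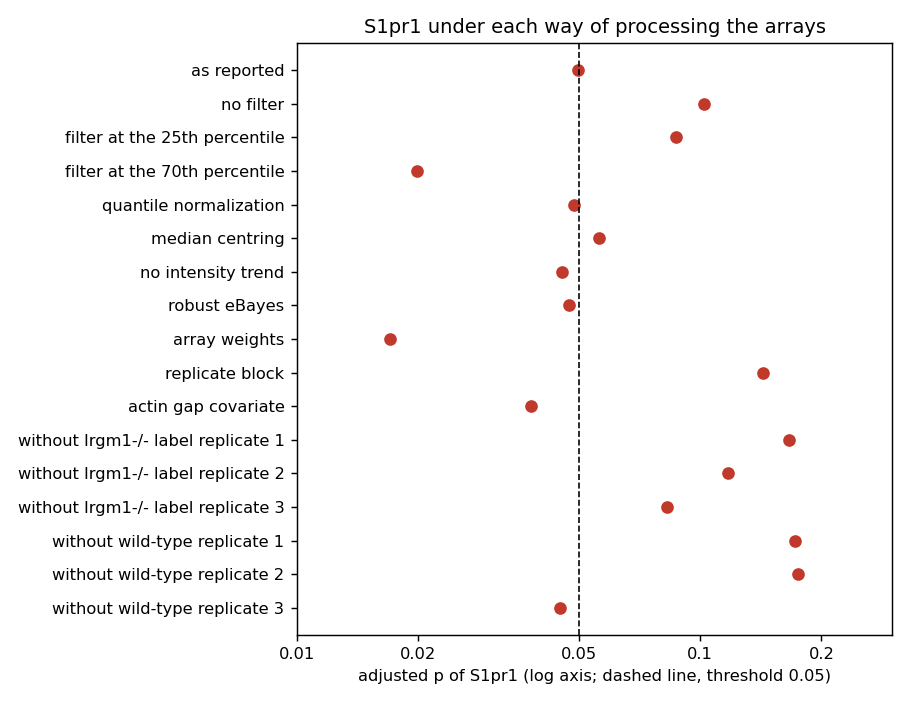
Adjusted p of S1pr1 (x axis, log scale) under the reported fit and each alternative (rows), with the threshold of 0.05 as a dashed line. The points range from 0.017 with array weights to 0.175 without wild-type replicate 2, and the reported value of 0.0498 lies just under it.

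Among other genes of S1P signalling, Cd69 rose. CD69 is a membrane protein that binds S1PR1 and takes it off the cell surface, which in lymphocytes blocks exit from tissue. Cd69 (1428735_at) gave 7.33, 7.31 and 7.55 under the knockout label, against 6.42, 6.41 and 6.31 for wild type, so the groups lay far apart relative to their spread. The log2 difference was 1.02 (SE 0.17, adjusted p = 0.0393), but the adjusted p was 0.0638 to 0.142 when any 1 array was left out, and 0.0714 when every probe set was tested. Activated T and NK cells also express Cd69, and 3 of 8 tested markers of those cells rose on the same arrays. Their part in the Cd69 difference was not tested. Without knockout-labelled replicate 3, where the CD3 genes were highest, the Cd69 difference was 0.94. The summed T and NK markers were also higher on replicates 1 and 2 (13.05 and 12.99, against at most 9.62 in wild type). With the knockout label that sum leans on Ccl5. The fit without replicate 3 therefore does not separate Cd69 from those markers.

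The S1P list held 15 tested genes, of which 1 rose, 0 fell and 14 did not pass. At an unadjusted p under 0.05 there were 8, against 18.5% of all genes tested, and for 7 the groups did not overlap, against 25.2% of all genes. Its median difference was 0.30, beside 0.00 over the 10374 genes tested (0.00317 before rounding). Sphk1, a kinase that makes S1P, gave 7.18, 6.93 and 7.09 with the knockout label, against 6.16, 6.67 and 5.73 in wild type (log2 difference 0.88, adjusted p = 0.169). The lipid phosphatases Plpp1 and Plpp2, which dephosphorylate S1P and related lipids outside the cell, had differences of opposite sign, 1.30 (adjusted p = 0.053) and -0.66 (adjusted p = 0.19).

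No other tested S1P receptor passed. S1pr2, which couples to signals that hold cells back, gave 6.44, 6.62 and 6.65 under the knockout label, against 6.27, 6.12 and 5.99 for wild type (0.44, adjusted p = 0.266), with no overlap. S1pr3 had a difference of 0.81 (adjusted p = 0.28) and S1pr4, a receptor of blood cells, one of -0.42 (adjusted p = 0.48), each with overlapping groups. Klf2, the transcription factor that drives S1pr1 in T cells, gave 7.94, 6.43 and 6.25 with the knockout label, against 7.20, 6.43 and 6.10 in wild type. These values overlapped (difference 0.30, 95% interval -0.84 to 1.43, adjusted p = 0.812), and without knockout-labelled replicate 1 the difference was -0.24.

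**Figure D3:**
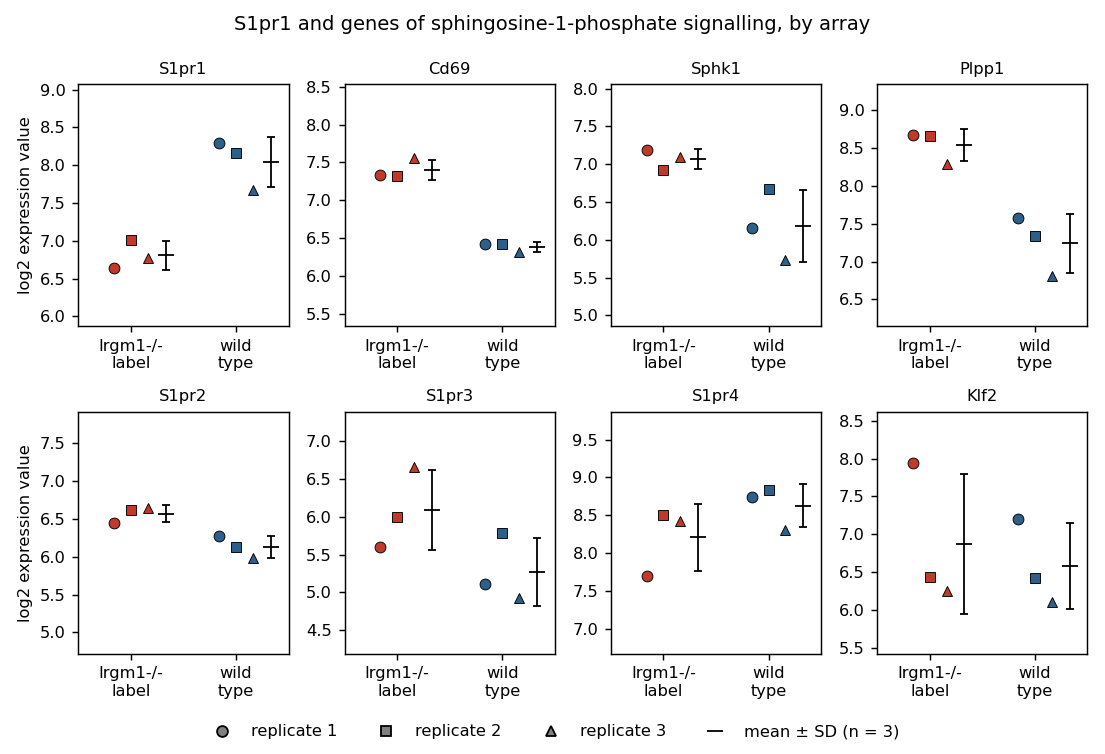
Log2 expression value (y axis, each panel spanning the same number of log2 units) of S1pr1 and 7 genes of S1P signalling, with knockout-labelled arrays (red) left of wild-type arrays (blue), points by replicate and bars for the mean ± SD of 3 arrays. S1pr1 is lower and Cd69 higher under the knockout label with no overlap between groups, and Klf2 is spread over 6.25 to 7.94 under the knockout label and 6.10 to 7.20 in wild type.

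The 4 tested probe sets of other genes whose values over the 6 arrays tracked S1pr1 most closely belonged to Pgr, Zfp334, Tbcel and Ripply3, with Pearson's r of 0.994, 0.993, 0.991 and 0.991. Pgr encodes the progesterone receptor, and it gave 6.58, 7.10 and 6.84 under the knockout label, against 8.51, 8.47 and 8.04 for wild type. Pgr (log2 difference -1.50, adjusted p = 0.028) and Zfp334 (-1.80, adjusted p = 0.0313) fell, whereas Tbcel and Ripply3 did not pass (adjusted p = 0.247 and 0.198). They were picked as the closest of all tested probe sets, and each r rests on the same 6 arrays, so these values are a description only.

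Cxcr4, the receptor for retention and homing, did not differ beyond its spread. Its only probe set (1448710_at) gave 8.80, 9.15 and 8.78 with the knockout label, against 8.26, 9.20 and 9.17 in wild type. Wild-type replicate 1 was the lowest of all 6, and the other values lay within a narrow range. The means were 8.91 ± 0.21 under the knockout label and 8.88 ± 0.54 in wild type (SD, n = 3 each), a log2 difference of 0.03 (95% interval -0.62 to 0.68, adjusted p = 0.967). The interval leaves room for a change of either sign, and the estimate was -0.28 without wild-type replicate 1.

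Around Cxcr4, the gene for the enzyme that inactivates its ligand was lower by some probe sets. DPP4 is a surface protease that cleaves the N terminus of CXCL12. Its brightest probe set (1416697_at) gave 6.48, 4.73 and 7.03 under the knockout label, against 8.73, 9.15 and 8.80 for wild type, a log2 difference of -2.81 that did not pass (SE 0.54, adjusted p = 0.0599). The groups were apart, but the knockout-labelled arrays were spread over more than 2 log2 units. The other tested probe sets of Dpp4, singled out after their values were seen, fell: 1459973_x_at by 2.63 (adjusted p = 0.0163) and 1441342_at by 0.96 (adjusted p = 0.0151). The 1441342_at values were above the array median on the wild-type arrays alone, which let it into the test. When single arrays were left out, each was still called in 2 of 6 fits, at adjusted p values reaching 0.0811 and 0.0782. The brightest was called in 2 of these 6 fits too, without knockout-labelled replicate 2 (adjusted p = 0.0397) or 3 (0.0466).

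Of the 22 genes of Cxcl12 and Cxcr4 signalling tested, 0 passed by their brightest probe set in the limma fit, with a median difference of 0.05. At an unadjusted p under 0.05 the list held 5 of its 22 tested genes (Dpp4, Mif, Rgs19, Gnai3 and Rgs16), against 18.5% of all genes tested. The cytokine Mif, another ligand of CXCR4, had a difference of 0.48 (adjusted p = 0.208), Rgs19, which shortens G protein signals, one of 0.56 (adjusted p = 0.242), and the G protein subunit Gnai3 one of -0.46 (adjusted p = 0.243).

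The integrin chains that bind VCAM-1, fibronectin and laminin gave no call. Itga4, the chain of VLA-4, was read by 3 tested probe sets, of which 1436037_at was brightest. It gave 8.86, 9.32 and 9.61 with the knockout label, against 9.61, 9.29 and 9.53 in wild type, a difference of -0.22 (95% interval -0.72 to 0.29, adjusted p = 0.666). The groups overlapped, and knockout-labelled replicate 1 was the lowest. The other 2 were dim and differed by 0.32 (1421194_at) and 0.10 (1456498_at), opposite in sign to the brightest.

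Itga5, the chain of the fibronectin receptor, had 2 tested probe sets with nearly the same result. The brighter (1458996_at) gave 7.37, 7.41 and 7.69 under the knockout label, against 7.44, 7.37 and 7.13 for wild type, a difference of 0.18 (95% interval -0.25 to 0.60, adjusted p = 0.68). The second (1457561_at) differed by 0.18 (adjusted p = 0.741). For both, the groups overlapped, with wild-type replicate 3 lowest.

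Itga6, the chain of laminin receptors and a stem cell marker in many tissues, was read by 2 probe sets that disagreed on 1 array. The brighter (1422444_at) gave 11.29, 11.01 and 10.21 with the knockout label, against 11.07, 10.89 and 11.13 in wild type (difference -0.19, adjusted p = 0.769). Here knockout-labelled replicate 3 stood far below the rest, and without it the difference was 0.12. The second (1422445_at) gave 10.25, 10.20 and 10.33 under the knockout label, against 10.54, 10.63 and 10.35 for wild type. These groups lay just apart, with a difference of -0.25 (95% interval -0.56 to 0.06, adjusted p = 0.408).

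Itgb1, the beta chain that these 3 alpha chains share, had 4 tested probe sets. The brightest (1426918_at) gave 9.74, 9.43 and 9.38 with the knockout label, against 9.74, 9.85 and 9.51 in wild type (difference -0.18, 95% interval -0.57 to 0.21, adjusted p = 0.644). The second (1452545_a_at) gave 8.62, 7.83 and 8.00 under the knockout label, against 8.61, 8.67 and 8.84 for wild type. In it knockout-labelled replicates 2 and 3 were lower than all other arrays while replicate 1 lay with the wild type. The difference of -0.55 (95% interval -1.09 to -0.02) had an unadjusted p of 0.045 and did not pass (adjusted p = 0.294). The remaining 2, whose names end in x_at, a suffix for probes that can also bind other transcripts, lay near the array median and differed by -0.00082 (1427771_x_at) and 0.15 (1426920_x_at).

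Itgal, the alpha chain of LFA-1 on leukocytes, was high on 1 array. Its tested probe set (1435560_at) gave 7.33, 7.18 and 9.16 with the knockout label, against 6.91, 6.56 and 7.10 in wild type. The knockout-labelled arrays lay above the wild-type ones, narrowly for replicates 1 and 2 and by a wide margin for replicate 3. The log2 difference was 1.03 (SE 0.50, 95% interval -0.14 to 2.21, adjusted p = 0.358). Without knockout-labelled replicate 3 it was 0.40 (adjusted p = 0.377).

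Selplg, the gene of PSGL-1, was high on the same array. Its only probe set (1449127_at) gave 10.37, 10.38 and 11.35 under the knockout label, against 10.65, 10.70 and 10.44 for wild type. Apart from knockout-labelled replicate 3, the knockout-labelled arrays were below the wild-type ones. The difference was 0.10 with all arrays (95% interval -0.53 to 0.73, adjusted p = 0.89) and -0.22 without that replicate (adjusted p = 0.446).

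T cell genes were also highest on knockout-labelled replicate 3. Cd3d gave 4.56, 3.45 and 6.92 with the knockout label, against 2.44, 2.49 and 2.46 in wild type. Cd3g gave 4.15, 3.32 and 7.06 under the knockout label, against 2.88, 2.92 and 2.89 for wild type. The wild-type values lie under the control ceiling. T cells carry both LFA-1 and PSGL-1, and the part of such cells in the values of Itgal and Selplg was not tested. Knockout-labelled replicate 3 also had the largest actin gap (3.56), though not the largest Gapdh gap. With the actin gap as a covariate in the limma fit, the difference was 0.88 for Itgal (adjusted p = 0.293) and -0.011 for Selplg (adjusted p = 0.979).

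**Figure D4:**
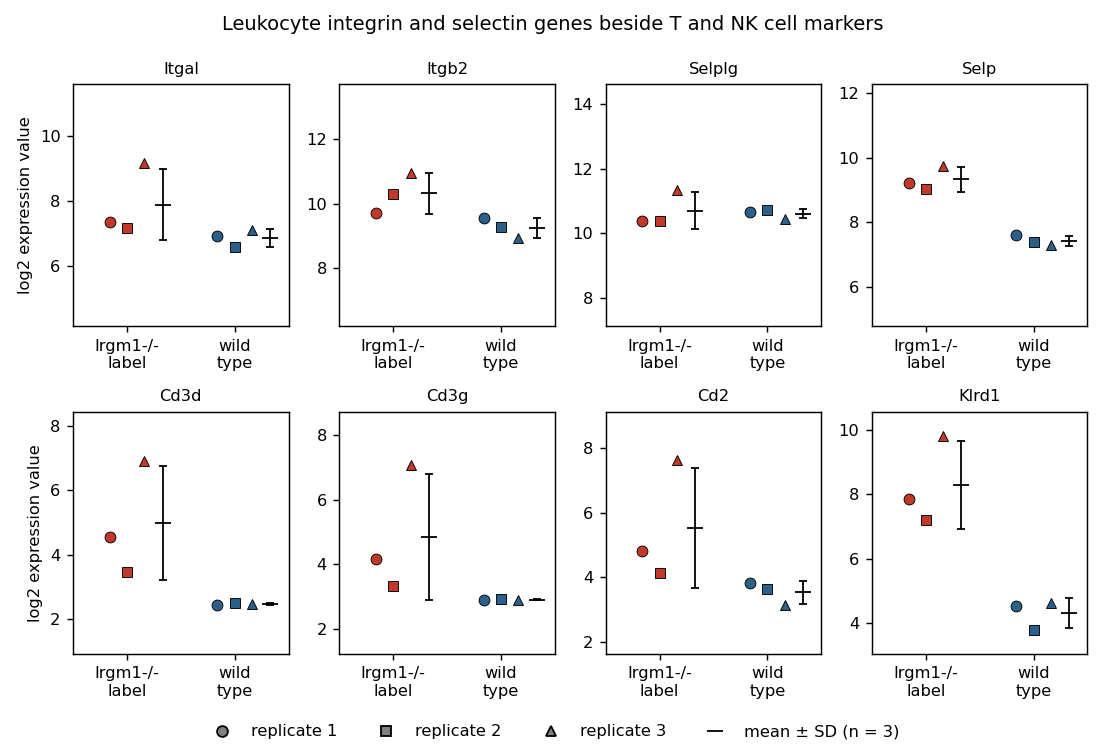
Log2 expression value (y axis, each panel spanning the same number of log2 units) of Itgal, its partner Itgb2, Selplg, its ligand Selp, and the T and NK cell markers Cd3d, Cd3g, Cd2 and Klrd1, with knockout-labelled arrays (red) left of wild-type arrays (blue) and bars for the mean ± SD of 3 arrays. Knockout-labelled replicate 3 (triangle) is the highest array in every panel, at 9.16 for Itgal and 6.92 for Cd3d.

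Partners and ligands of alpha L and alpha 4 did not pass, and their differences had both signs. Itgb2, the beta chain of LFA-1, gave 9.71, 10.29 and 10.97 with the knockout label, against 9.55, 9.28 and 8.93 in wild type. The groups did not overlap, but the difference of 1.07 did not pass (SE 0.32, adjusted p = 0.175). Of the ICAMs, which LFA-1 binds, Icam2 differed by 0.71 (adjusted p = 0.107), Icam4 by 0.68 (adjusted p = 0.112) and Icam1 by -0.24 (adjusted p = 0.681). Vcam1, the ligand of VLA-4, differed by 1.14 by its brightest probe set (adjusted p = 0.177). The other Vcam1 probe sets differed by 0.21 and -0.07. Itgb7, the other beta chain that pairs with alpha 4, had overlapping groups (-0.07, adjusted p = 0.952).

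P-selectin (Selp), the receptor on platelets and endothelium that binds PSGL-1, rose. Its brightest probe set (1420558_at) gave 9.20, 9.02 and 9.76 under the knockout label, against 7.59, 7.40 and 7.28 for wild type. The groups lay far apart, with a log2 difference of 1.90 (SE 0.23, adjusted p = 0.0135), and the other 2 probe sets rose too, by 2.20 (adjusted p = 0.0112) and 1.99 (adjusted p = 0.0261). The adjusted p of the brightest was 0.0593 when knockout-labelled replicate 1 was left out, 0.061 when wild-type replicate 1 was and 0.0811 when wild-type replicate 2 was. Of the 6 fits that left out an array, 4 still called the second probe set (1440173_x_at) and 1 the last (1449906_at). Of 6 platelet markers on the array, 3 were tested. Gp1bb, a subunit of the receptor for von Willebrand factor, rose (1.44, adjusted p = 0.029), but its probe set entered the test through the knockout-labelled arrays alone, the only ones above the array median. Pf4 differed by 0.98 (adjusted p = 0.106) and Gp9 by -0.09 (adjusted p = 0.765). Ppbp, not tested, read 2.71, 3.10 and 2.76 with the knockout label, against 2.75, 2.95 and 3.92 in wild type. The log2 of the summed level of the 6 platelet markers on the array was 9.73, 9.91 and 9.30 with the knockout label, against 8.47, 8.70 and 8.99 in wild type. The sum leans on Pf4, the brightest of the 6 on every array, so it does not describe the 6 as a class. Gp5 and Gp6 lay at or below the control ceiling on every array. The part of the platelet markers in the Selp and Itga2b values was not tested.

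Cd44 was nearly level over the arrays by its brightest probe set and less so by the others. The brightest (1423760_at) gave 12.50, 12.52 and 12.52 with the knockout label, against 12.57, 12.55 and 12.60 in wild type. The groups did not overlap, yet the log2 difference was only -0.06 (95% interval -0.27 to 0.15, adjusted p = 0.8). A second probe set (1434376_at) gave 8.93, 8.93 and 8.33 under the knockout label, against 8.66, 8.78 and 9.68 for wild type, overlapping groups in which wild-type replicate 3 was highest (-0.31, adjusted p = 0.662). Without that array its difference was 0.0066. The dimmest tested (1452483_a_at) lay at 3.80 to 4.46 and differed by 0.10 (adjusted p = 0.854).

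**Figure D5:**
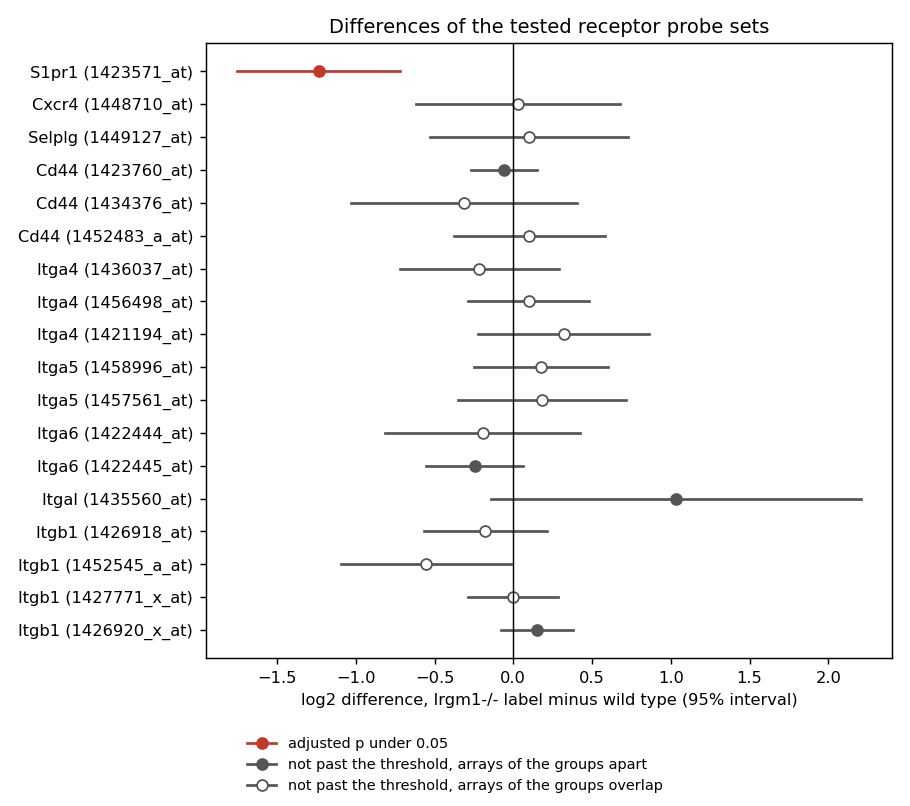
Log2 difference, knockout label minus wild type (x axis), with its 95% interval for the 18 tested probe sets (rows) of the 9 receptor genes. The S1pr1 interval of -1.75 to -0.72 lies farthest from 0, the interval of 1 Itgb1 probe set (-1.09 to -0.02) also leaves out 0, and the Itgal interval (-0.14 to 2.21) is the widest.

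Over the 17 tested probe sets that did not pass, the differences ran from -0.55 to 1.03. For 14 of them the 95% interval lay wholly within 1 log2 unit of 0, so that a 2-fold difference was outside it. Of these 14, 5 lay under 5 on all arrays, near the low range where dim values form a narrow band. For those 5 the interval bounds the difference in these values and need not bound that in RNA. The remaining 3 of the 17 intervals, of Itgal, of 1 Cd44 probe set and of 1 Itgb1 probe set, reached past 1 log2 unit. A p that misses the threshold does not show that the levels were the same. The 8 probe sets that did not enter the test belonged to Itga4, Itga5, Itgb1, Itgal and Cd44. Of these, 6 lay between 1.74 and 2.87, at or below the control ceiling on every array, and 2 lay between 3.43 and 4.46. Each of these genes also has a brighter tested probe set.

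In the wider machinery of adhesion and homing, 119 of 173 listed genes were tested by their brightest probe set, and 3 rose (Cd69, Fyb and Selp) and 2 fell (Ncam1 and Efnb2), with Ncam1 admitted to the test by its wild-type arrays alone. That is 4.2% of the 119, beside 2.03% of all 10374 genes tested (1.08% higher and 0.954% lower). The median difference was 0.04. These lists, that of S1P signalling among them, were chosen with earlier results of these data known.

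Among 26 genes of integrin activation, Fyb rose and 0 fell. It encodes ADAP, an adaptor that couples receptors to integrins in T cells and platelets. Fyb (1452117_a_at) gave 9.59, 9.95 and 9.77 with the knockout label, against 8.77, 8.60 and 8.51 in wild type (log2 difference 1.15, SE 0.16, adjusted p = 0.0261), and its adjusted p was 0.0531 to 0.118 when any 1 array was left out. Its partner Skap1, also a T cell gene, gave 5.13, 4.18 and 6.89 under the knockout label, against 3.54, 3.03 and 2.96 for wild type (adjusted p = 0.143), and entered the test through the knockout-labelled arrays alone. The kinase Ptk2b differed by -0.87 (adjusted p = 0.176) and kindlin-3 (Fermt3), which switches on integrins of blood cells, by 0.46 (adjusted p = 0.22).

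Of 9 other integrin subunits, 0 passed by their brightest probe set in the limma fit. At an unadjusted p under 0.05 there were 4 of the 9, against 18.5% of all genes tested. Itga2b, the platelet chain, read 7.66, 8.17 and 8.43 with the knockout label, against 6.94, 7.01 and 7.29 in wild type, with no overlap (adjusted p = 0.107). Its partner Itgb3 differed by 0.67 (adjusted p = 0.196) and Itgb5 by -1.56 (adjusted p = 0.118). Another probe set of Itgb5 (1417533_a_at), singled out after its values were seen, gave 2.38, 2.30 and 2.48 with the knockout label, against 5.63, 5.64 and 4.29 in wild type. As the knockout-labelled values are all under the control ceiling, it fell at least 4.16-fold (adjusted p = 0.0151). It too entered the test through the wild-type arrays alone. It had adjusted p of 0.0684 to 0.0773 without replicate 1 or 2 of either group.

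Of 15 other adhesion molecules of marrow stem cells, 2 fell and 0 rose, with a median difference of -0.57. Of these 15, 7 had an unadjusted p under 0.05, against 18.5% of all genes tested. Some markers of other cells also moved between the groups. Of 6 tested stromal and endothelial markers, Col1a2 fell (-2.88, adjusted p = 0.00889) and 0 rose, with 3 of the 6 differences above 0. Sparc had a difference of 1.94 by its brightest probe set, which did not pass. Every probe set of Col1a1, Col3a1 and Lepr lay at or below the control ceiling on all arrays. The log2 of the summed level of the 9 on the array was 10.77, 10.86 and 10.57 with the knockout label. In wild type it was 9.99, 10.04 and 8.93. The sum leans on Vwf, the brightest of the 9 on every array, so it does not describe the 9 as a class. Vwf gave 10.58, 10.72 and 10.18 with the knockout label, against 9.23, 9.29 and 7.67 in wild type. Of 7 tested monocyte and macrophage markers, Ms4a6c rose (1.53, adjusted p = 0.0313) and 0 fell, with 4 of the 7 differences above 0. Cd14 had a difference of -1.25 with no overlap but did not pass. The summed level of the 8 on the array, 11.34 to 12.02 with the knockout label and 11.22 to 12.07 in wild type, overlapped. The part of these markers of other cells in the adhesion genes was not tested. The neural adhesion molecule Ncam1 gave 2.23, 1.82 and 1.78 under the knockout label, against 4.74, 3.96 and 3.74 for wild type. It was at least 2.03-fold lower, measured against the control ceiling (adjusted p = 0.0122). Its probe set entered the test through the wild-type arrays alone, the only ones above the array median, so its selection favoured a difference. The adjusted p was 0.0621 and 0.0555 without replicate 2 of the knockout label and of the wild type. Efnb2, the ligand ephrin-B2, gave 5.19, 5.26 and 4.80 with the knockout label, against 6.04, 6.16 and 6.11 in wild type (-1.02, SE 0.18, adjusted p = 0.0454), and its adjusted p was 0.0634 to 0.153 when any 1 array was left out. The tetraspanin Cd81 differed by -0.65 (adjusted p = 0.0529) and the junctional molecule Jam3 by -1.15 (adjusted p = 0.0641).

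The other lists held few calls. Of 15 genes of selectins and of the enzymes that build their ligands, Selp rose and 0 fell. Cd24a, a mucin-like ligand of P-selectin, differed by -0.46 by its brightest probe set (adjusted p = 0.0974), while another (1416034_at, singled out after its values were seen) fell by 0.69 (adjusted p = 0.04), with adjusted p of 0.0682 to 0.143 when any 1 array was left out. Of 11 integrin and hyaluronan ligands, 0 passed and 5 had an unadjusted p under 0.05, against 18.5% of all genes tested. Lama5 was at 1.02 (adjusted p = 0.06) and Icam4 at 0.68 (adjusted p = 0.112). Of 6 other chemokine and homing receptors, 0 passed and 2 had an unadjusted p under 0.05, beside the same 18.5% of all genes. Cxcr3, a receptor of activated T and NK cells, was at 1.65 (adjusted p = 0.0722) and Ccr2 at 1.60 (adjusted p = 0.183). All tests here are limma fits with 3 arrays per group, a number that limits their precision.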

How the data were processed

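The values analysed are the log2 expression values per probe set that the authors deposited. The submitters' processing notes name GCRMA. Which version or settings is not given in the sources used here. That the scale is log2 follows from the range of the values. GCRMA corrects background by probe sequence, so dim probe sets form a narrow low band. Per the labels' protocols, RNA went through rounds of linear T7 amplification, which favours 3' ends.

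Of 45101 probe sets, 34958 had 1 gene symbol, and 34754 of these matched a gene of the RefSeq table (GRCm38.p6), used for names only. The knockout label was compared with wild type by limma 3.58.1 (R 4.3.3) with an intensity trend, 2-sided, over the 22580 probe sets above the array median on at least 3 arrays, with Benjamini-Hochberg adjustment over all of them and a threshold of 0.05. The fit was tested on simulated data. No pseudocount was used. A fold is a lower bound where a group lies under the control ceiling on every array.

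The members and lists were chosen with earlier results of these data known. Named were all members, and of each list the genes past the threshold and up to 4 with the smallest p. S1pr2, S1pr3, S1pr4, Klf2 and Itgb7, as receptor relatives, a regulator and a partner, were added after their values were seen. Icam1, a ligand, was also named outside this rule. Alternatives changed the filter, normalisation, variance model, array weights, covariate, replicate block, threshold, probe set and arrays.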

Additional observations from a re-analysis of the deposited data

How the results depend on the processing

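Each of the 18 receptor probe sets was read under 15 or 16 alternative fits, which gave 283 values. Of these, 261 kept direction and side of the threshold, 9 (all S1pr1) lost the call and 13 changed sign, each without passing. For the 17 probe sets not called in the reported fit, keeping the side means only staying uncalled. With single arrays left out, the difference ran through 0 for Cxcr4 (-0.28 to 0.19), Selplg (-0.22 to 0.27), Itga6 1422444_at (-0.42 to 0.12), Itgb1 1427771_x_at (-0.084 to 0.095), Cd44 1434376_at (-0.50 to 0.0066) and 1452483_a_at (-0.048 to 0.28), Itga4 1456498_at (-0.054 to 0.21) and Itga5 1457561_at (-0.025 to 0.30), and outside the receptors for Itgb7 (-0.45 to 0.22) and Klf2 (-0.24 to 0.61). Selplg was also at -0.12 with array weights and at -0.011 with the actin gap as covariate, and Itgb1 1427771_x_at at 0.011 with that covariate. The cause was not tested.

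Receptor probe sets called lower numbered 1, but 0 without a filter, with the 25th percentile as filter, after median centring and at a threshold of 0.01, and 0 to 1 when single arrays were left out. Those called higher numbered 0 in every refit. Over all probe sets, 150 were called higher and 163 lower. These counts were 49 and 54 without a filter, 62 and 64 with the 25th percentile as filter, 401 and 463 with array weights, 252 and 263 with the actin gap, 314 and 315 at a threshold of 0.10 and 25 and 32 at 0.01. They ranged from 17 to 138 and from 28 to 129 when single arrays were left out, each fit then resting on 5 arrays. Pathway genes called, 3 higher and 2 lower, became 1 and 0 without a filter, 6 and 7 with array weights, 6 and 6 at a threshold of 0.10, and 0 and 0 at 0.01. Those lower were 0 with the 25th percentile as filter, 1 with robust eBayes, 5 with the actin gap and 5 with the smallest-p probe set of each gene, and single arrays left out gave 0 to 2 of either.

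With the replicate number as a block, S1pr1 was at -1.24 (adjusted p = 0.143), 27 probe sets were called higher and 41 lower, with 0 receptor probe sets lower, and 0 pathway genes were higher and 1 lower. The labels do not say that equal numbers mark shared animals or days, and same-numbered arrays did not deviate together (correlations of -0.11, -0.018 and -0.28 for replicates 1, 2 and 3). The number of arrays limits which smaller differences could be seen.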
